A study of Caenorhabditis elegans with 2 samples.

Results

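The C32H11 group is a run of 16 neighbouring genes on chromosome IV of Caenorhabditis elegans whose sequence names begin with C32H11. Its members here are the 9 genes of that run with at least 1 FPKM (fragments scaled by transcript length and library size) in either library, out of 46135 genes in the deposited table. They were thus chosen by sequence name and by measured FPKM in these same libraries. The run holds 12 protein-coding genes, 2 pseudogenes and 2 piRNA genes in the RefSeq annotation, and all 9 members are protein-coding. The libraries came from whole L3 larvae of the lsm-1(tm3585) mutant, backcrossed 3 times to N2 per the labels, and of the wild-type strain N2. Both populations were synchronised at the first larval stage and grown at 25 °C for 26 hours. There was 1 library of rRNA-depleted total RNA per genotype, so no difference below has a replicate check, and a difference between the genotypes cannot be told apart from one between these libraries. LSM-1, the protein encoded by lsm-1, is part of a cytoplasmic ring of Lsm proteins that promotes decapping of messenger RNAs before their decay.

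CUB-like genes of C. elegans encode mostly secreted proteins that are made in the intestine, and many are known as infection-response genes. Several of them are known to be controlled by the p38 kinase PMK-1 and by the insulin pathway. In that pathway the transcription factor DAF-16 activates class 1 target genes, while class 2 genes fall when DAF-16 is active. The name dod, for downstream of DAF-16, comes from that work, and dod-21 and dod-24 are class 2 genes. The name cld, carried by cld-1 (C32H11.9), stands for a CUB-like domain.

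The members did not all carry names of that kind. RefSeq names C32H11.5, C32H11.6 and C32H11.8 srlf-4, srlf-5 and srlf-6, and Ensembl gives the name srlf-6 to C32H11.11 as well, which is called by its sequence name here. These 4 genes are described together as the srlf genes of the run. The annotation used lists no protein domains, so whether each member encodes a CUB-like domain was not examined. The genes dod-21, dod-24, cld-1 and C32H11.4, which passed the test in the authors' deposited table, are named the called members below. They were set apart by their values in these libraries, so how far they lie from other genes is a description that this choice fixes in part.

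The lsm-1 transcript itself stood at 5.94 FPKM in the mutant against 10.2 in N2, a ratio of 0.581 with a 95% counting interval from 0.341 to 0.978. A level over the whole gene is a weak check of a deletion allele. The spacing of low FPKM values put the depth at about 8.57 M fragments for the mutant library and about 7.02 M for N2. Intervals below cover counting error at these depths and no other error. Among the 14838 genes with at least 1 FPKM in either library, called measured genes, the median difference was 0.24 on the log2(FPKM + 1) scale, with the mutant higher. A difference is always the mutant minus the wild type on that scale, which understates the change of low genes, and a centred difference has that median subtracted.

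C32H11.4 had the widest gap of the run. It stood at 82.1 FPKM in the mutant against 1.01 in N2, from about 833 and 8 fragments. The mutant library was 81.1 times the wild-type library, with a counting interval from 43.0 to 198. Its difference of 5.37 on the log2(FPKM + 1) scale had rank 86 among all 14838 measured genes. It ranked first among the 11804 measured genes listed above 0 in each of the table's 4 FPKM columns, which leaves out every gene listed at 0 in any of them. In the wild type 14.4% of measured genes had a lower FPKM than C32H11.4, and in the mutant 95.7% did.

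The gene dod-24 (C32H11.12) had the highest level of the run in the mutant. It stood at 111 FPKM in the mutant, from about 1101 fragments, and at 8.26 in N2, from about 67. The ratio was 13.4, with an interval from 10.5 to 17.5, and the difference was 3.60. Its position among measured genes moved from 71.8% with a lower FPKM in N2 to 96.5% in the mutant.

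The genes cld-1 and dod-21 (C32H11.10) lie next to each other on opposite strands, with their 5′ ends facing. For cld-1 the levels were 70.5 FPKM in the mutant against 4.63 in N2, a ratio of 15.2 with an interval from 11.04 to 22.02. For dod-21 they were 69.7 and 4.43 FPKM, a ratio of 15.7 with an interval from 11.34 to 23.1. Both libraries thus placed these neighbours at nearly the same level: the FPKM of cld-1 was 1.01 times that of dod-21 in the mutant and 1.04 times in N2. Their annotated transcripts are 1150 and 1140 bases long, and whether the genes share reads was not examined. Their differences of 3.67 and 3.70 took the fourth and second ranks among the same 11804 genes, and dod-24 took rank 6. Among all measured genes these were ranks 430 for cld-1, 424 for dod-21 and 446 for dod-24.

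The ratio of C32H11.4 stood apart from those of the other called members. The lower end of its interval, 43.0, lay above the upper ends for cld-1, dod-21 and dod-24. The intervals of those 3 genes overlapped one another. Within the wild-type library the FPKM of C32H11.4 was 0.123 times that of dod-24, and within the mutant library 0.740 times.

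**Figure D1:**
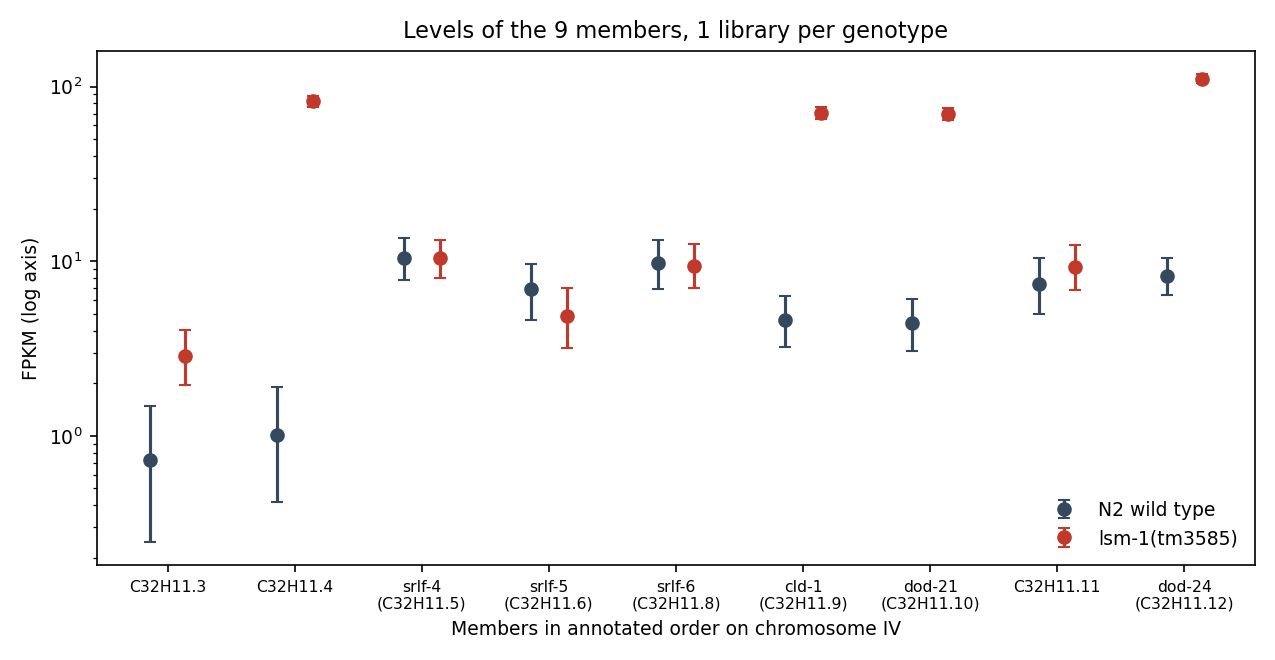
FPKM on a log axis of the 9 members in annotated order on chromosome IV, in the N2 wild-type library (dark) and the lsm-1(tm3585) library (red). Points are single libraries and bars are 95% counting intervals. C32H11.4, cld-1, dod-21 and dod-24 lie between 69.7 and 111 FPKM in the mutant and between 1.01 and 8.26 in N2, while the bars of the 4 srlf genes overlap between the libraries.

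The srlf genes between and beside these members stood at similar levels in both libraries. The gene srlf-4 lies next to C32H11.4, tail to tail with it, and stood at 10.5 FPKM in the mutant against 10.4 in N2, a ratio of 1.01 with an interval from 0.688 to 1.47. The gene srlf-6 (C32H11.8), next to cld-1, stood at 9.44 and 9.76 FPKM, a ratio of 0.967 with an interval from 0.632 to 1.53. Each of these intervals spans 1 and leaves out the ratios of all 4 called members.

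C32H11.11 lies between dod-21 and dod-24. It stood at 9.23 FPKM in the mutant against 7.43 in N2, a ratio of 1.24 with an interval from 0.790 to 2.06. The gene srlf-5 stood at 4.87 and 6.89 FPKM, a ratio of 0.707 with an interval from 0.409 to 1.23. Between 27 and 65 fragments lay behind each mutant value of the 4 srlf genes and between 31 and 53 behind each wild-type value, so their intervals together allow ratios from 0.409 to 2.06, and smaller differences were not detectable at this depth. After centring, the difference of C32H11.11 was 0.04 and those of srlf-4, srlf-6 and srlf-5 were -0.23, -0.28 and -0.66.

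C32H11.3 is the first member from the left in the annotated order. It stood at 2.85 FPKM in the mutant against 0.727 in N2, from about 31 and 6 fragments. The ratio was 3.92, with a wide interval from 1.74 to 12.4. It is a member through the mutant library alone, so a higher mutant value was built into the choice. Its difference was 1.16, or 0.92 after centring, and its q-value in the authors' deposited table was 0.0937.

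By the authors' deposited table, 4 of the 9 members passed the test, all of them higher in the mutant, namely C32H11.4, cld-1, dod-21 and dod-24. Over all 17570 genes with a usable test, 2.35% passed it as higher and 1.41% as lower. Those 17570 include genes below 1 FPKM in both libraries, which the 9 members by their choice do not. Their test sets the reads of these libraries against each other. By size, 5 of 9 members were at least 2-fold higher on the log2(FPKM + 1) scale and 0 were lower, where 13.6% of measured genes were higher and 12.2% lower. These shares include genes listed at 0 in 1 library, which 2554 of the 14838 measured genes were, against 0 of the 9 members. After centring 4 members were 2-fold higher. The median difference of the 9 members was 1.16, against 0.24 over all measured genes. The members were chosen with these values known, so the counts describe the run and are no test of it.

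**Figure D2:**
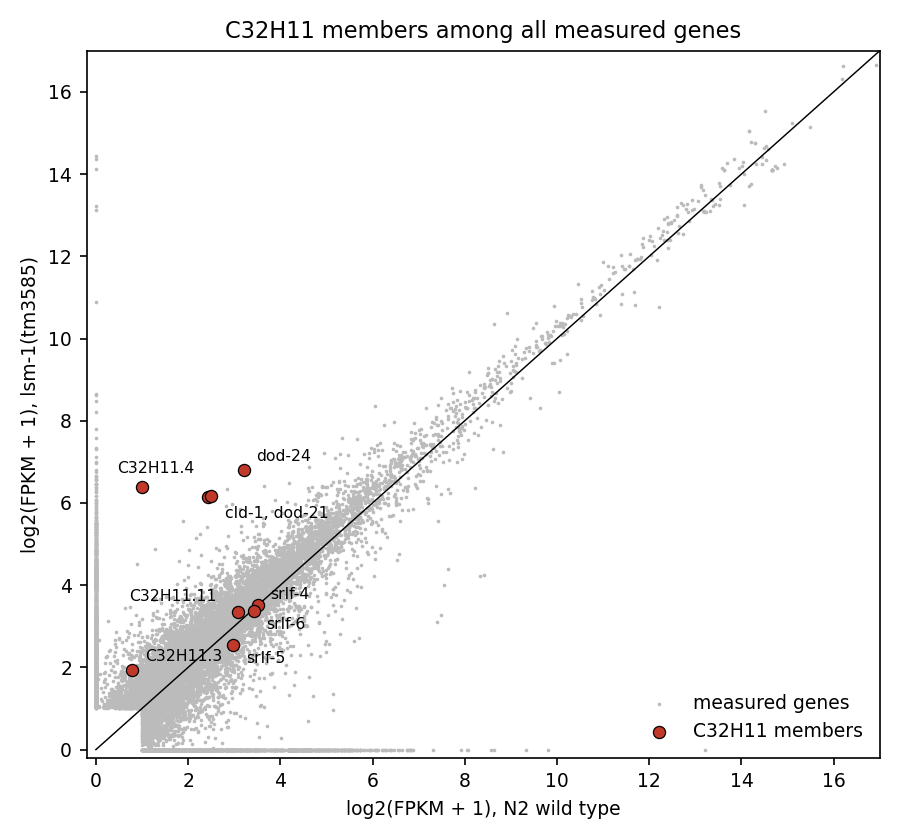
log2(FPKM + 1) of each measured gene (grey) in the N2 wild-type library (x axis) and the lsm-1(tm3585) library (y axis), with the 9 members in red and a line at equal levels. C32H11.4, cld-1, dod-21 and dod-24 lie above the cloud, with differences from 3.60 to 5.37, and the 4 srlf genes lie beside the line.

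The order of levels within the run differed between the libraries. In the wild type srlf-4 (10.4 FPKM) and srlf-6 (9.76) stood highest, followed by dod-24 (8.26), C32H11.11 (7.43), srlf-5 (6.89), cld-1 (4.63), dod-21 (4.43), C32H11.4 (1.01) and C32H11.3 (0.727). The counting intervals of neighbours in that order overlapped, except between dod-21 (from 3.05 to 6.09 FPKM) and C32H11.4 (from 0.416 to 1.90). In the mutant dod-24 (111 FPKM) stood highest, followed by C32H11.4 (82.1), cld-1 (70.5), dod-21 (69.7), srlf-4 (10.5), srlf-6 (9.44), C32H11.11 (9.23), srlf-5 (4.87) and C32H11.3 (2.85). There the intervals of dod-24 (from 104.5 to 118) and C32H11.4 (from 76.6 to 87.9) did not overlap, and those of C32H11.4 and cld-1 (from 65.3 to 75.9) were narrowly apart. The interval of dod-21 (from 64.5 to 75.1) overlapped that of cld-1 and lay far above that of srlf-4 (from 8.05 to 13.3).

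Summed over the 9 members, the mutant library held 370.01 FPKM and the wild type 53.5. The 4 called members made up 333 FPKM of that sum in the mutant and 18.3 in N2, or 90.04% and 34.2%. The other 5 members together stood at 36.9 and 35.2 FPKM. The transcripts of the 4 called members have annotated lengths from 1140 to 1183 bases, and the srlf transcripts lengths from 588 to 727 bases. None of the 9 members overlaps another annotated gene of WBcel235.

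The remaining 7 genes of the run did not reach 1 FPKM in either library. The infection-response gene irg-6 (C32H11.1), at the left end, stood at 0.387 FPKM in N2, about 4 fragments, and was listed at 0 for the mutant. The serpentine receptor gene srz-15 (C32H11.2) stood at 0.116 and 0.495 FPKM and dct-19 (C32H11.13) at 0.267 and 0.196. Nearest below the threshold were the pseudogenes C32H11.16, with 0.875 FPKM in N2 and a listed 0 for the mutant, and C32H11.7, at 0.338 and 0.743. Nearest above it was C32H11.3. Both piRNA genes, 21ur-13325 and 21ur-12632, were listed at 0 in both libraries.

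The genes flanking the run were low or close to the median of measured genes. Of the 5 annotated genes on each side, 3 were measured, and 0 of these 3 were 2-fold higher or lower or past the authors' test. These were K08D8.3 (7.22 FPKM in the mutant against 5.49 in N2), K08D8.4 (11.6 against 7.28) and K08D8.5 (6.88 against 5.28), which lie next to one another on the left. On the left side K08D8.8 stood at 0.944 FPKM in N2 and was listed at 0 for the mutant, and K08D8.2 was listed at 0 in both. On the right the genes F55G11.1, F55G11.10, abt-3, F55G11.13 and F55G11.6 lay below 1 FPKM in both libraries.

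Further along on the right lie the F55G11 and K10D11 genes, among them dod-22 and dod-17, and this stretch was chosen after its values were seen. Of 4 measured F55G11 genes, F55G11.2 (11.904 FPKM in the mutant against 1.43 in N2) passed the authors' test as higher. Its neighbours dod-22 (6.01 against 4.97) and F55G11.8 (10.03 against 8.69) did not, nor did mbug-1 (22.4 against 22.01). Of 4 measured K10D11 genes, dod-17 (29.4 against 9.44) and K10D11.6 (3.04 against 0.792) passed it as higher. K10D11.6 reached 1 FPKM in the mutant alone, so the direction of its difference was built into the filter. Over all genes with a usable test, those below 1 FPKM included, 2.35% passed it as higher. To the left of the run, 4 of 10 measured K08D8 genes were 2-fold higher and 1 was lower, where 13.6% and 12.2% of all measured genes were. Of those 4 genes 3 were listed at 0 in N2, and none of the 10 passed the authors' test.

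**Figure D3:**
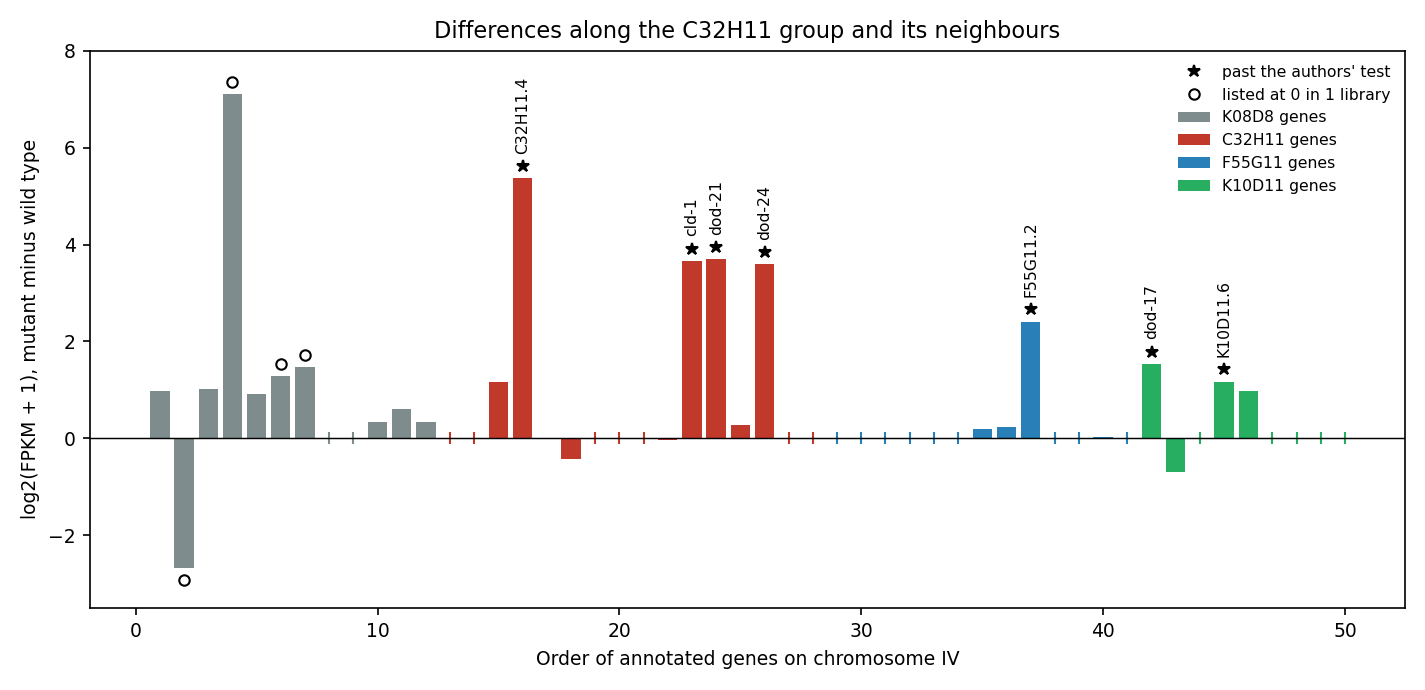
Differences in log2(FPKM + 1), mutant minus wild type, of measured genes in their annotated order on chromosome IV (bars, coloured by clone name), with ticks at 0 for genes below 1 FPKM in both libraries. Stars mark genes past the authors' test and open circles genes listed at 0 in 1 library. The 4 starred bars of the C32H11 run reach from 3.60 to 5.37, with those of cld-1 and dod-21 side by side, and the 4 srlf genes of the run lie from -0.43 to 0.28.

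CUB-like genes outside the run, taken from a list drawn up from general knowledge, ranged in difference from -0.70 to 1.57. F55G11.2, with a difference of 2.41, was not on that list, and whether it encodes a CUB-like domain was not examined. Of the 19 listed genes 17 were measured, 4 were 2-fold higher and 0 were 2-fold lower, where 13.6% and 12.2% of all measured genes were. Those shares include genes listed at 0 in 1 library, and this list held 0 of them among its measured genes. The median difference of the list was 0.61. The genes cld-9 (16.7 FPKM in the mutant against 4.96 in N2) and dod-17 passed the authors' test as higher. Over all genes with a usable test, those below 1 FPKM included, 2.35% did so. At the other end K10D11.2 stood at 0.281 against 1.09 FPKM and C17H12.8 at 36.2 against 48.0. K10D11.2 reached 1 FPKM in N2 alone, so the direction of its difference was built into the filter. The infection-response gene irg-5 was the most abundant of the list, at 133 against 86.6 FPKM, and irg-4 stood at 12.0 against 7.51. When centred, 2 of the 17 were 2-fold higher.

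Of 13 other DAF-16 class 2 genes listed, 7 were measured. Of these 1 was 2-fold higher and 1 lower, and 0 were listed at 0 in 1 library. The shares over all measured genes, 13.6% and 12.2%, include genes so listed. The median difference was 0.41. The highest were dod-17 and dod-18 (4.73 FPKM against 2.08, with a failed test in the authors' deposited table). The lowest were the insulin-like gene ins-7 (0.569 against 10.2) and nuc-1 (11.15 against 12.7), which encodes a nuclease. Since ins-7 reached 1 FPKM in N2 alone, the direction of its difference was built into the filter. The other 6 genes lay below 1 FPKM in both libraries, with dod-23 at 0.687 in N2 and listed at 0 for the mutant. Of 9 measured insulin pathway genes and regulators of class 2 genes, 0 passed the authors' test, and akt-1 and daf-16 had no usable test in the authors' deposited table. For akt-1, whose test failed, the table gave 29.1 FPKM in the mutant and 0 for N2 and in both further FPKM columns. The kinase gene pdk-1 stood at 4.29 against 2.01, and the zinc finger gene pqm-1 at 3.45 against 3.03. The gene elt-2, for the main intestinal GATA factor, stood at 1.41 against 2.59. The gene hlh-30 was listed at 0 in both libraries, with a failed test in the authors' deposited table.

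Of 12 known targets of the p38 pathway, all measured, 2 were 2-fold higher and 1 was lower. Over all measured genes the shares were 13.6% and 12.2%, but those include genes listed at 0 in 1 library, and this list held 0 of them. The median difference was 0.33. The lectin gene clec-60 (10.99 FPKM against 3.63) passed the authors' test as higher, as 2.35% of all genes with a usable test did. The saposin-like gene spp-18 stood at 23.1 against 10.3. At the low end were sysm-1 (T24B8.5), a common reporter of this pathway, at 12.78 against 34.1 FPKM and clec-67 at 7.08 against 13.3. Of the pathway itself, 5 of 6 genes were measured and 0 were 2-fold apart. The phosphatase gene vhp-1, a negative regulator, stood at 38.9 against 19.9 FPKM and passed the authors' test. The adaptor gene tir-1 stood at 9.69 against 6.66, and the kinase genes sek-1 and pmk-1 at 13.96 against 10.6 and 11.32 against 8.82. The gene atf-7 was listed at 0 in both libraries, with a failed test in the authors' deposited table.

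The srlf genes elsewhere in the genome, a list added after the members' names were seen, were compared with those of the run. Of 28 genes 16 were measured, 2 were 2-fold higher and 1 was lower, where 13.6% and 12.2% of all measured genes were. Those shares include genes listed at 0 in 1 library, and this list held 0 of them among its measured genes. Of the 16, 0 passed the authors' test, and the median difference was 0.18. The ends were srlf-12 (2.19 FPKM against 0.121) and srlf-3 (2.47 against 0.641) on the high side and srlf-24 (0.619 against 3.07) and srlf-19 (1.24 against 3.41) on the low side. The genes srlf-12 and srlf-3 reached 1 FPKM in the mutant alone and srlf-24 in N2 alone, so the direction of these differences was built into the filter. The 4 srlf genes of the run had a median difference of -0.02.

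The larvae were sequenced whole, so fewer cells of a type and less RNA per cell cannot be told apart. Intestine markers, for the tissue where CUB-like genes are known to be expressed, had a summed level of 394 FPKM in the mutant against 354 in N2. The sums of marker levels here and below are not scaled between the libraries. Equal FPKM sums of the libraries (ribosomal RNA left out) would multiply mutant values by 0.815, which would put the intestine sum lower in the mutant. Of 11 measured among 12 such markers, 0 were 2-fold higher and 1 was lower, where 13.6% and 12.2% of all measured genes were. Those shares include genes listed at 0 in 1 library, and 0 of these markers were so listed. The median difference of the intestine markers was 0.32, close to the median of all measured genes. The peptide transporter gene pept-1 (14.4 against 8.45 FPKM) and the actin gene act-5 (105 against 69.2, with a failed test in the authors' deposited table) were at the high end. The metallothionein gene mtl-2 (26.3 against 59.02) and the ferritin gene ftn-1 (8.37 against 15.6) were at the low end. The esterase gene ges-1 was listed at 0 in both libraries.

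Markers of the other tissues varied from list to list. Of 6 epidermis markers 3 were 2-fold higher, where 13.6% of all measured genes were. That share includes genes listed at 0 in 1 library, and the epidermis list held 0 of them. The epidermis list had summed levels of 353 FPKM in the mutant against 257 in N2. Of its genes, elt-3 (16.6 against 6.06) and grd-10 (84.04 against 29.05) passed the authors' test as higher. Over all genes with a usable test, those below 1 FPKM included, 2.35% did so. Of 4 measured body wall muscle markers 2, myo-3 and hlh-1, were 2-fold higher, against 13.6% of all measured genes. The sums over the muscle list were 146 and 86.0. The centred differences of myo-3 and hlh-1 were each 0.90, short of 2-fold. The gene unc-15 was listed at 0 in both libraries, with a failed test in the authors' deposited table. All 5 germ line markers had negative centred differences, with sums of 32.2 and 46.9. Of 3 measured pharynx markers 0 were 2-fold apart, with sums of 21.8 and 13.5. Of 5 neuron markers 1 was 2-fold higher, against 13.6% of all measured genes, with sums of 101 and 68.6. That gene was rab-3, listed at 0 for N2 and in both further FPKM columns, with a failed test in the authors' deposited table. The part of tissue composition in the members' values was not tested.

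**Figure D4:**
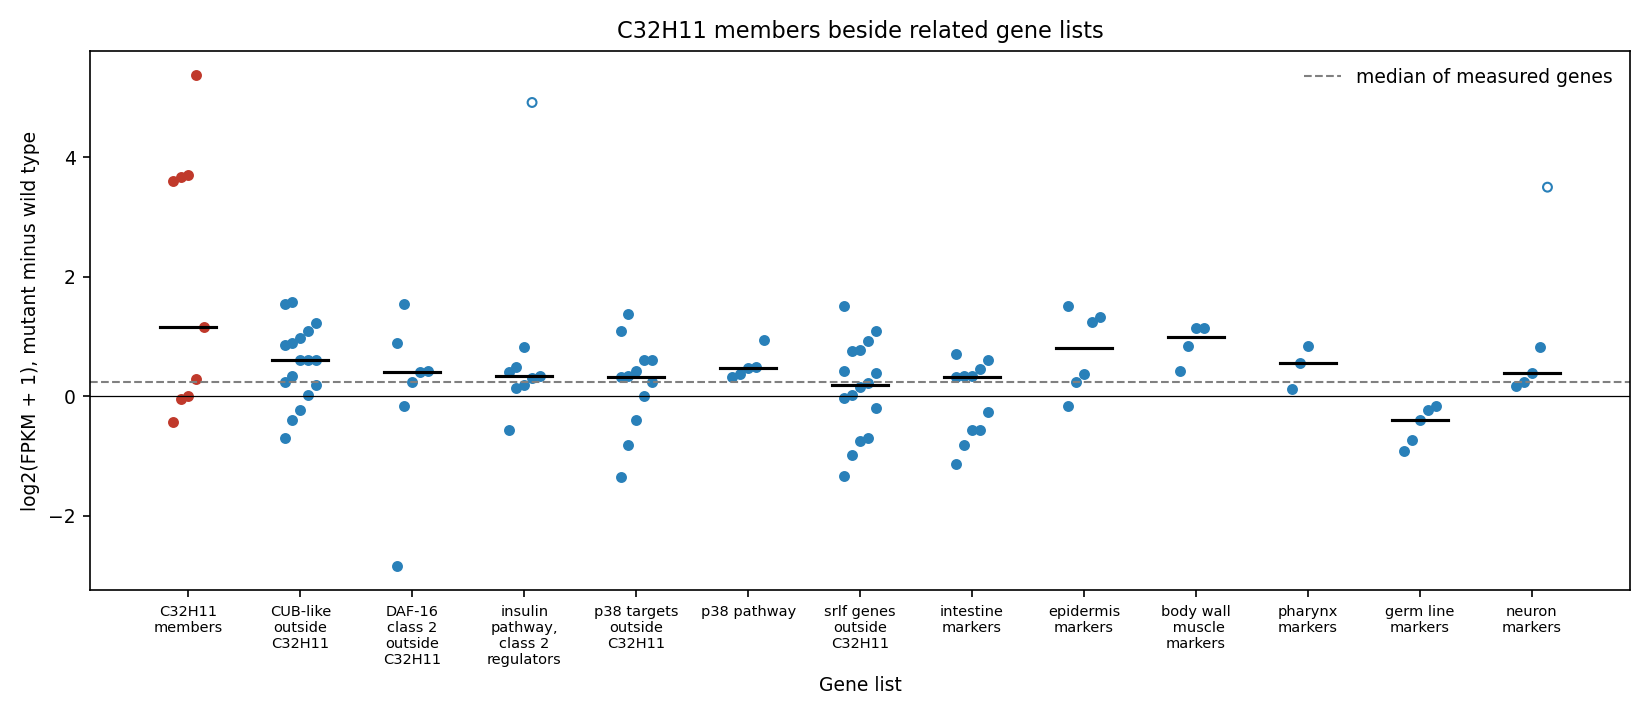
Differences in log2(FPKM + 1), mutant minus wild type, of the 9 C32H11 members (red) and of the measured genes of the 12 lists (blue). Each point is 1 gene, open points are genes listed at 0 in 1 library, black bars are medians and the dashed line is the median of all measured genes, 0.24. The 4 called members lie from 3.60 to 5.37, and the highest points of the other lists are akt-1 (4.91) and rab-3 (3.50), both open.

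The 5 genes outside the run that lay nearest in level to the mean of the 4 called members were on chromosomes IV, V and X. Likeness was measured as the distance over log2(FPKM + 1) in both libraries, among 17392 genes listed above 0 in each of those 4 columns. The nearest was the ncRNA C09B7.6 on chromosome X, at 80.6 FPKM in the mutant against 6.16 in N2 and a distance of 0.55. The ncRNA F25D1.10 (59.9 against 6.097, distance 0.70), the insulin-like gene ins-35 (61.5 against 6.74, distance 0.78), the ncRNA C26B2.12 (46.5 against 2.70, distance 0.90) and gst-38, which encodes a glutathione S-transferase (41.5 against 4.29, distance 0.97) followed. Of these 5, ins-35 and gst-38 passed the authors' test. The ncRNAs rest on few fragments, about 5, 6 and 3 in N2. The members' own distances from their mean were 0.27 for dod-21, 0.29 for cld-1, 1.02 for dod-24 and 1.28 for C32H11.4, so all 5 genes lay nearer to that mean than dod-24 and C32H11.4 did.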

How the data were processed

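Per the submitters' processing notes, TopHat, Cufflinks and Cuffdiff were used, without stated versions, and the genome build and annotation are not given in the files or labels used here. The authors deposited 2 pairs of FPKM columns, and for each gene their log2 fold change, p-value, q-value and test score. The FPKM pair beside the authors' test was used, and the further pair served as an alternative. Differences were log2(FPKM + 1), mutant minus wild type. No test was run, since each genotype had 1 library. Fragments were estimated as FPKM times Ensembl release 115 transcript length times depth. Depth came from genes with 1 transcript, where 28.3% of 6432 ratios between the libraries fell within 0.3% of small whole-number ratios, against 2.85% by chance. Some values lay on steps between whole fragments, so fragment numbers are approximate. Intervals are exact (Poisson for levels, Clopper-Pearson for ratios). Python 3.11.15, pandas 2.3.3 and scipy 1.17.1 were used. The depth estimate and 2-fold calls were tested on simulated counts with counting error alone. Changes larger than 2-fold were planted there, only in genes above a set level. That simulation held no other variation between libraries, so it cannot check 2-fold differences between single libraries or those of low genes.

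Names and gene order came from RefSeq (WBcel235), which matched 44817 genes, and no coordinates are printed because the authors' build is not known. The members and gene lists were chosen with earlier results of these data known. Genes were named by rule: every gene of the run, 5 annotated genes on each side, up to 2 at each end of a list, the 5 nearest in level, and lsm-1. The genes irg-4, irg-5 and the other genes singled out further along chromosome IV, grd-10, elt-3 and rab-3 were picked after their values were seen. Protein and promoter sequences were not used here, so the planned comparison of protein identity and promoter motifs was not run.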

Additional observations from a re-analysis of the deposited data

How the results depend on the processing

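No paired analysis was possible because each genotype had 1 library, and for the same reason no library could be left out. Across the 7 alternatives, 58 of 62 differences of single members were counted as unmoved. That count is a weak check, since dropping or raising the FPKM filter cannot move the difference of a single gene. The further FPKM pair gave nearly the same ratios, 0.998 times those of the main pair. C32H11.3 was counted as unmoved although its difference ranged from 0.46 to 1.84. The margin used allowed for counting error and is not the ratio interval printed above. None of the alternatives changed the direction of a member called 2-fold. The count of members 2-fold higher, 5 as reported, was 4 with a pseudocount of 5, at equal FPKM sums, when centred and with at least 5 FPKM. With a pseudocount of 5 the differences of C32H11.4 (3.86), cld-1 (2.97), dod-21 (2.99) and dod-24 (3.13) were smaller. The median difference of the members, 1.16 as reported, is that of C32H11.3, and it moved too. It was 1.84 with a pseudocount of 0.1, 0.46 with a pseudocount of 5, 0.94 at equal FPKM sums of the libraries (ribosomal RNA left out), 0.92 when centred, 0.0040 over all 16 genes without a filter and 1.94 with at least 5 FPKM. The median of all measured genes, 0.24, was 0.13 with a pseudocount of 5, -0.0037 with equal sums, 0 without a filter and 0.34 with at least 5 FPKM. Of the CUB-like genes outside the run, 2 were 2-fold higher with a pseudocount of 5, with equal sums and when centred, and 1 was lower with a pseudocount of 0.1. Of the DAF-16 class 2 genes 2 were higher with a pseudocount of 0.1. Of the p38 targets 0 were higher with a pseudocount of 5, while with equal sums or centring 1 was higher and 2 were lower. Of the intestine markers 2 were lower with equal sums or centring. With low wild-type levels, depth limits the ratio of C32H11.4, whose wild-type value rests on about 8 fragments, and that of C32H11.3, with about 6. Promoter windows and measures of protein identity were not compared.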
